A study of Mus musculus with 6 samples.

Results

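The smooth muscle contractile genes are 34 genes that encode smooth muscle actins, myosin, tropomyosins, calponins and the proteins that regulate them or anchor them to the membrane. They were taken by symbol from the 51826 gene symbols of the count files. All 34 were found, and 33 passed the filter on low counts that left 13873 genes for testing. The gene that did not pass was Pcp4, which encodes a small calmodulin-binding protein and had 30 counts in GFPneg replicate 2 and 0 in the other 5 libraries.

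RNA-seq libraries were made from total RNA of mammary basal cells of C57B6/N mice of the SMAcreERT2/N1ICD genotype. These mice carry a Cre recombinase that is active only under tamoxifen and is made where the promoter of smooth muscle actin is on, together with the N1ICD allele, which encodes the constitutively active inner part of the Notch1 receptor. Tamoxifen was given once, on postnatal day 21. On day 24, 72 hours later, each of 3 pools of 2 to 3 mice was sorted into cells with GFP (GFPpos) and without it (GFPneg). Both groups, 3 libraries each, therefore share genotype, tamoxifen, age and pool, and all libraries come from mice that carry the N1ICD allele. The smooth muscle actin promoter that drives the recombinase belongs to a member of the set, Acta2, so that the level of Acta2 at the time of tamoxifen bears on which cells could be recombined. What drives GFP is not said in the labels.

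Myoepithelial cells form the outer, basal layer of mammary ducts and contract to move milk, and they share their contractile proteins with smooth muscle. Contraction starts when calcium and calmodulin activate myosin light chain kinase, which phosphorylates the myosin regulatory light chain so that myosin can pull on actin filaments. Calponin and caldesmon bind the thin filament and restrain this cycle, myosin phosphatase reverses it, and dense plaques of vinculin, talin and alpha-actinin pass the force to the membrane. Oxytocin, acting on its receptor, is the hormone that sets it off in the mammary gland.

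The libraries differed in depth, and GFPneg replicate 1 stood apart. It held 611465 gene counts against 9912610 to 16043492 in the others, and 69.2% of them lay in 5 abundant noncoding features against 22.7% to 34.7%. The 34 genes together had 3494 counts there and 152151 to 421798 in the other libraries. A gene with 0 counts in that library could have had a level of up to 9.84 CPM (counts scaled to the TMM-adjusted library size), the level of 3 counts, and 5 of the 34 genes had 0. Fits with and without that library are therefore given for the members described in most detail, and beside each fold change whose sign turned without it. The labelled cell type was checked against its markers. Krt5 and Krt14, keratins of basal cells, stood at 713 to 1734 and 796 to 1954 CPM over the 6 libraries, and Trp63, a transcription factor of the basal layer, at 118 to 302 CPM.

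Stretches upstream of 4 members are shown from the RefSeq promoter table (GRCm38.p6), because Acta2 is the gene whose promoter type drives the recombinase, Cnn1 had the largest difference between the groups apart from the sparsely counted Kcnma1, Cnn3 is its close relative without such a difference, and Oxtr is the hormone receptor of the set. They are printed 5′ to 3′ on the strand of the gene. Capitals mark 3 motifs, searched on both strands: the CArG box, where serum response factor binds, with at most 1 letter of its central part changed; TGGGAA, the core of the site of RBPJ, the DNA-binding partner of the Notch intracellular domain; and GGAATG, the core of the site of TEAD factors. In Acta2 the second site below holds such a CArG variant that overlaps TGGGAA. The Acta2 sites start 94, 42 and 158 bases before the RefSeq start and lie in a first exon that GENCODE M21 places further upstream. The stretches of the other 3 genes begin 250 bases before the RefSeq start and end where the GENCODE gene begins.
Acta2 site 1: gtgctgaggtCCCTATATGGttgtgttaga
Acta2 site 2: tctttgctCCTTGTTTGGGAAgcgagtggg
Acta2 site 3: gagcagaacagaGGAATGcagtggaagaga
Cnn1: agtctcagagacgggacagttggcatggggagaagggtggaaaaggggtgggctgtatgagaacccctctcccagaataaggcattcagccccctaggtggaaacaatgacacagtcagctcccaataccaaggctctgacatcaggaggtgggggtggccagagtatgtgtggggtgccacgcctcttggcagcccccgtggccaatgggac
Cnn3: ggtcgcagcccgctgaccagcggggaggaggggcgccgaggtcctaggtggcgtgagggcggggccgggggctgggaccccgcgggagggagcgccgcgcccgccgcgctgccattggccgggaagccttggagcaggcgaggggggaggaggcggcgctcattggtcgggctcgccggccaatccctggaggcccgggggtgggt
Oxtr: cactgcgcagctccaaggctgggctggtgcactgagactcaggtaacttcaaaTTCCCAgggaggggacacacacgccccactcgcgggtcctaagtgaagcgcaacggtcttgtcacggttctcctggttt

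The Acta2 sites lie at chr19:34255438-34255467, chr19:34255386-34255415 and chr19:34255502-34255531 on the minus strand. The Cnn1 stretch is chr9:22099003-22099215 (plus strand), that of Cnn3 chr3:121426291-121426496 (plus) and that of Oxtr chr6:112489944-112490075 (minus). The printed Cnn1 and Cnn3 stretches held none of these letters, and Oxtr held TGGGAA on the opposite strand. Over the 250 bases before the start, 31 of the 34 genes had an entry, with 36 promoters in all. A CArG box without any changed letter was found in 4 member promoters (Cnn2, Myl6, Myl9 and Vcl), 11.1% against 1.47% of the 32851 promoters in the table. With at most 1 changed letter it was found in 7 of 36 (19.4% against 8.59%), TGGGAA in 9 of 36 (25.0% against 21.6%) and GGAATG in 10 of 36 (27.8% against 12.6%). The genes without an entry were Tagln, Myh11 and Actg2. Of the 6 genes named below whose GFPpos and GFPneg levels did not overlap, 5 had an entry (Cnn1, Tpm2, Cald1, Oxtr and Pdlim7), and none of these 5 had a CArG box in this window under either rule. With member shares of 11.1% and 19.4%, 5 promoters are too few to set these genes apart from the other members. These are matches of letters, with no measure of binding.

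Most contractile genes had a lower fitted level in GFPpos than in GFPneg cells, but none passed the threshold over the 6 libraries. Of the 33 tested members, 24 had negative log2 fold changes, against 42.5% of all genes tested, and the median was -0.25, against 0.15 over all genes. In edgeR's quasi-likelihood test 0 members were higher and 0 lower at a Benjamini-Hochberg adjusted p below 0.05, where 0.00721% of all tested genes were lower and 0.0577% higher. At an unadjusted p below 0.05, 3 members were lower (Cnn1, Myh11 and Oxtr) and 0 higher, against 2.88% and 2.38% of all genes. DESeq2 called 0 members, against 0.346% of all genes lower and 0.360% higher. In limma-voom 2 members fell, Cnn1 and Myh11, against 0.173% of all genes, and 0 rose, against 0.389%. In edgeR's fit of 6 libraries every member other than Cnn1, Myh11 and Oxtr had an adjusted p of 0.976 or above. The 3 GFPpos libraries lay below all 3 GFPneg libraries for 6 members (Tpm2, Cald1, Cnn1, Myh11, Oxtr and Pdlim7), against 3.63% of all genes, and above them for 0 members, against 9.53%.

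**Figure D1:**
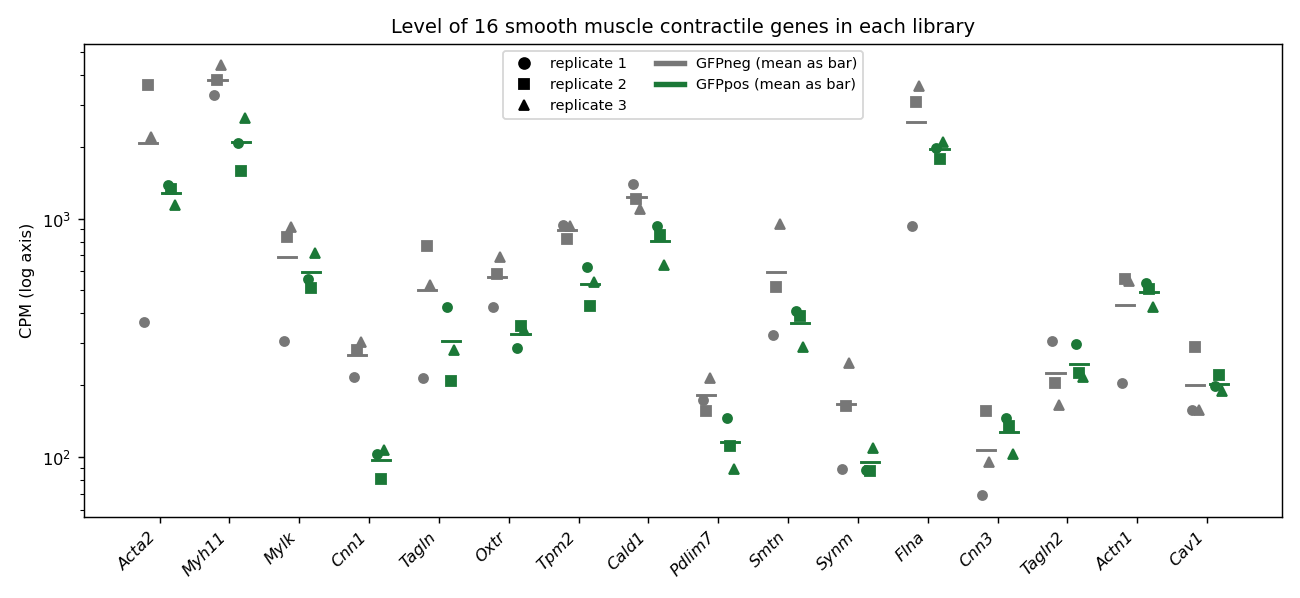
Level of 16 of the 34 genes in each library, in CPM on a log axis. Symbols mark the replicate, grey is GFPneg, green is GFPpos, and bars are group means. Cnn1, Myh11, Oxtr, Tpm2, Cald1 and Pdlim7 do not overlap between the groups, while for Acta2, Mylk and Flna the circle of GFPneg replicate 1 lies below all other libraries.

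The 3 pairs did not agree, and the share of all genes lower in GFPpos cells also differed between pairs. In the replicate 2 pair 31 of 33 members were lower in GFPpos cells, against 52.3% of all genes, and in the replicate 3 pair 25 were lower, against 48.0%. In the replicate 1 pair 11 were lower, a larger share than the 24.5% of all genes, most of which were not lower in GFPpos cells of that pair. The median log2 ratio of CPM + 1 over the members was 0.75, -0.56 and -0.45 in replicates 1, 2 and 3. Medians over all genes within each pair were not computed, so these values are not set against a background. Higher in GFPpos cells of replicate 1 and lower in the other pairs were 17 of the 33 members, against 20.1% of all genes. Lower in all 3 pairs were 8, against 8.07%, and higher in all 3 pairs 0, against 21.5%. GFPneg replicate 1 lay below the other 5 libraries for 17 of the 33 members, against 59.3% of all genes. With GFPneg replicate 1 set aside, all 3 GFPpos libraries lay below GFPneg replicates 2 and 3 for 19 members, against 13.6% of all genes. They lay above both for 1 member, Tagln2, against 12.6%.

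Without GFPneg replicate 1 the direction was more uniform. Of 33 members 28 had negative log2 fold changes (48.0% of all genes did), with a median of -0.50 against 0.04 over all genes. Cnn1 fell in that fit and no other member was called, against 0.190% of genes lower and 0.412% higher, and 13 members were lower and 0 higher at an unadjusted p below 0.05, against 4.57% and 4.56%. With the replicate number as a block over 3 pairs 0 members were called (0.130% of genes lower, 0.310% higher). In that fit 18 of 33 were negative, against 36.2% of all genes, with a median of -0.09 against 0.32 over all genes. With the block and without replicate 1, a fit of 2 pairs with few residual degrees of freedom, 6 members fell (Acta2, Actg2, Cnn1, Tagln, Smtn and Synm), against 1.41% of all genes, and 0 rose, against 2.52%. In such bulk samples fewer cells of a type and less RNA per cell cannot be told apart.

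**Figure D2:**
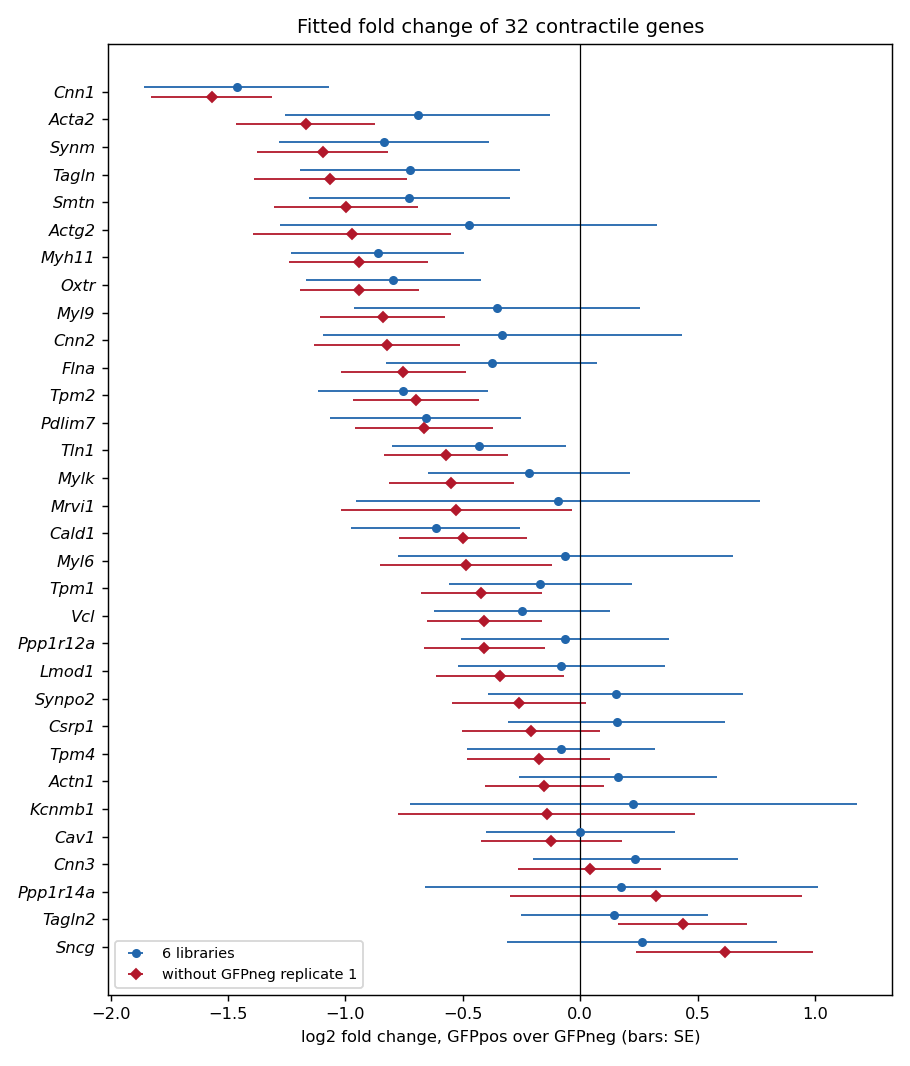
Log2 fold change of GFPpos over GFPneg for 32 of the 33 tested genes in edgeR's fit, with SE as bars, over all 6 libraries (blue circles) and without GFPneg replicate 1 (red diamonds). Genes are ordered by the latter, and Kcnma1 is left out because its SE was 1.50. Cnn1 is lowest in both fits, and Acta2, Actg2, Myl9 and Cnn2 move left when the library is left out.

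In the values by library that follow, the 3 numbers of a group are those of replicates 1, 2 and 3 in that order. Among the thin filament genes, 11 of 13 had negative fold changes in both fits, and their median was -0.47 over 6 libraries and -0.70 without GFPneg replicate 1. Cnn1 encodes calponin 1, the calponin of differentiated smooth muscle (ENSMUSG00000001349.5, chromosome 9, 22099216 to 22109630, mm10). By library it measured 216, 279 and 303 CPM in GFPneg and 103, 80.8 and 107 CPM in GFPpos cells, with means of 266 ± 44.7 (SD, n = 3) and 96.9 ± 14.1 CPM (SD, n = 3). Every GFPpos library lay below every GFPneg library, and the lowest GFPneg value belonged to the shallow library. The log2 fold change was -1.46 (SE 0.39), with an adjusted p of 0.396 over 6 libraries, 0.0158 without GFPneg replicate 1, 0.0176 with limma-voom, 0.357 with the replicate block and 0.0807 with DESeq2. The edgeR fold change without GFPneg replicate 1 was -1.57 (SE 0.26). Leaving out each library or pair in turn gave fold changes of -1.61 to -1.31 and adjusted p-values of 0.0158 to 0.972.

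The other calponins were closer between the groups. Cnn3, acidic calponin, stood at 68.9, 155 and 95.2 CPM in GFPneg and 145, 134 and 103 CPM in GFPpos cells. Its groups overlapped, with a log2 fold change of 0.24 (SE 0.44) and of 0.04 without GFPneg replicate 1. Cnn2, the calponin of many nonmuscle cells, was at 0, 104 and 114 CPM in GFPneg and 51.3, 82.9 and 48.3 CPM in GFPpos cells, with a count of 0 in the shallow library. The fold change was -0.33 over 6 libraries, -0.82 without that library and 0.27 with the replicate block. The ratio of Cnn1 to Cnn3 (counts per exon length) does not depend on the scaling of a library. In GFPneg replicate 1 it rests on 66 counts of Cnn1 and 21 of Cnn3. It was 3.49, 2.00 and 3.53 in GFPneg and 0.787, 0.669 and 1.16 in GFPpos replicates 1, 2 and 3. These ratios did not overlap, with a difference of -1.78 on the log2 scale (two-sided exact permutation p = 0.1, the smallest that 3 against 3 allow, and 0.467 adjusted over the 7 ratios tested). The ratio was chosen after the levels of both genes were seen, so that its separation adds no independent evidence.

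Acta2, which encodes smooth muscle alpha-actin (ENSMUSG00000035783.9, chromosome 19, 34241090 to 34255590), had the highest mean level per exon length of the members in both groups, 942 CPM per kb in GFPneg and 584 CPM per kb in GFPpos cells. In GFPneg replicate 1 Myh11 stood above it: the ratio of Myh11 to Acta2 per exon length was 2.59, 0.302 and 0.578 in GFPneg and 0.434, 0.346 and 0.671 in GFPpos replicates 1, 2 and 3. By library Acta2 stood at 367, 3642 and 2197 CPM in GFPneg and 1380.1, 1326 and 1143 CPM in GFPpos cells. The 3 GFPpos values lay close together, and the GFPneg values lay on either side of them, with replicate 1 below and replicates 2 and 3 above. The log2 fold change of -0.69 (SE 0.57) did not pass the threshold (unadjusted p = 0.239), and it was -1.17 (SE 0.30), with an adjusted p of 0.134, without GFPneg replicate 1. Acta2 fell only in the block fit without replicate 1 (log2 -1.18, adjusted p = 0.0304).

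Actg2, the gamma-actin of smooth muscle, was at 0, 157 and 68.0 CPM in GFPneg and 73.7, 65.9 and 31.0 CPM in GFPpos cells. The value in GFPneg replicate 1 is a count of 0. The fold change was -0.47 (SE 0.80) over 6 libraries, -0.97 without GFPneg replicate 1 (adjusted p = 0.506) and -0.0012 with the replicate block. Actg2 fell in the block fit without replicate 1 (log2 -1.17, adjusted p = 0.0217). Actc1, an actin of heart whose sequence is close to that of both, was present at 0, 111 and 66.1 CPM in GFPneg and 39.6, 37.7 and 22.5 CPM in GFPpos cells. Reads of near-identical actin sequence could have been assigned to either gene or dropped, and how such reads were handled is not stated, which leaves single actin levels uncertain.

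Tagln encodes transgelin, an actin-bundling protein of smooth muscle, and was at 213, 767 and 526 CPM in GFPneg and 427, 209 and 281 CPM in GFPpos cells. GFPpos replicate 1 lay above its GFPneg partner and the other 2 pairs went the opposite way, with a log2 fold change of -0.73 (SE 0.47) over 6 libraries, -1.06 (SE 0.33) without GFPneg replicate 1 (adjusted p = 0.238), and -1.37 in the block fit without replicate 1, where it fell (adjusted p = 0.00194). Its relative Tagln2, found in many cell types, was at 305, 203 and 165 CPM in GFPneg and 297, 225 and 216 CPM in GFPpos cells. All 3 GFPpos values exceeded those of GFPneg replicates 2 and 3, as they did for 12.6% of all genes. The fold change of Tagln2 was 0.15 (SE 0.40), or 0.44 without GFPneg replicate 1. The ratio of Tagln to Tagln2 was 0.732, 3.95 and 3.34 in GFPneg and 1.51, 0.972 and 1.36 in GFPpos cells and overlapped through replicate 1 (exact permutation p = 0.4).

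Tropomyosins lie along the actin filament. Tpm2, beta-tropomyosin, was at 941, 817 and 932 CPM in GFPneg and 625, 428 and 541 CPM in GFPpos cells, without overlap (chromosome 4, 43514711 to 43523765). Its fold change was -0.76 (SE 0.36), with an unadjusted p of 0.0536. Tpm1 ranged from 482 to 1017 CPM (log2 -0.17) and Tpm4, the tropomyosin of many nonmuscle cells, from 144 to 278 CPM (log2 -0.08), and both overlapped between the groups.

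Cald1, which encodes caldesmon (chromosome 6, 34598500 to 34775473), was at 1400.0, 1213 and 1095 CPM in GFPneg and 927, 854 and 639 CPM in GFPpos cells. Here GFPneg replicate 1 was the highest library, and no GFPpos value reached a GFPneg value (log2 -0.62 (SE 0.36), unadjusted p = 0.108). Smtn, smoothelin, was at 325, 516 and 953 CPM in GFPneg and 410.2, 389.6 and 288 CPM in GFPpos cells (log2 -0.73 (SE 0.43)), and fell in the block fit without replicate 1 (adjusted p = 0.0497). Lmod1, leiomodin 1, which nucleates actin filaments, ranged from 72.1 to 175 CPM with a fold change of -0.08.

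Of the 6 myosin genes 5 had negative fold changes in both fits, with medians of -0.14 and -0.52. Myh11, the smooth muscle myosin heavy chain (ENSMUSG00000018830.10, chromosome 16, 14194535 to 14291372), was at 3289, 3807 and 4393 CPM in GFPneg and 2072, 1587 and 2656 CPM in GFPpos cells, with means of 3829 ± 552 (SD, n = 3) and 2105 ± 535 CPM (SD, n = 3). GFPneg replicate 1 lay with the other GFPneg libraries for this gene, and the groups did not overlap. The log2 fold change was -0.86 (SE 0.37), with an adjusted p of 0.843 in edgeR, 0.255 without GFPneg replicate 1 and 0.0388 in limma-voom. The edgeR fold change was -0.94 (SE 0.30) without that library. It stayed between -1.06 and -0.69 when single libraries or pairs were left out.

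Mylk, which encodes myosin light chain kinase, was at 305, 839.8 and 919 CPM in GFPneg and 556, 509 and 717 CPM in GFPpos cells. Apart from the low value of GFPneg replicate 1, all GFPneg values exceeded the GFPpos values, with a fold change of -0.22 (SE 0.43) over 6 libraries and -0.55 (SE 0.26) without that library (adjusted p = 0.583). Myl9, the regulatory light chain that this kinase phosphorylates, was at 29.5, 397 and 343 CPM in GFPneg and 203, 165 and 245 CPM in GFPpos cells. It had 9 counts in GFPneg replicate 1, and the fold change was -0.35 over 6 libraries, -0.84 without that library and 0.12 with the replicate block. Myl6, the essential light chain, ranged from 3.28 to 53.6 CPM (log2 -0.06). The phosphatase subunit gene Ppp1r12a ranged from 141 to 499 CPM (log2 -0.07), and the groups overlapped. Ppp1r14a, which encodes an inhibitor of that phosphatase, was at 13.1, 9.65 and 9.20 CPM in GFPneg and 14.8, 8.01 and 12.1 CPM in GFPpos cells, with the only positive fold change of the myosin group at 0.18 (SE 0.84). Its fold change was 0.32 (SE 0.62) without GFPneg replicate 1.

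The ratio of Myh11 to Myh9, the heavy chain of nonmuscle myosin, was 0.994, 2.30 and 2.39 in GFPneg and 1.45, 1.07 and 1.51 in GFPpos replicates 1, 2 and 3 per exon length (exact permutation p = 0.4). That of Acta2 to the nonmuscle actin gene Actb was 0.870, 1.88 and 1.65 in GFPneg and 0.987, 0.828 and 0.654 in GFPpos cells (exact permutation p = 0.2). In both, GFPneg replicates 2 and 3 stood above all GFPpos libraries and GFPneg replicate 1 did not. With 3 libraries against 3, no ratio could have passed the threshold.

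**Figure D3:**
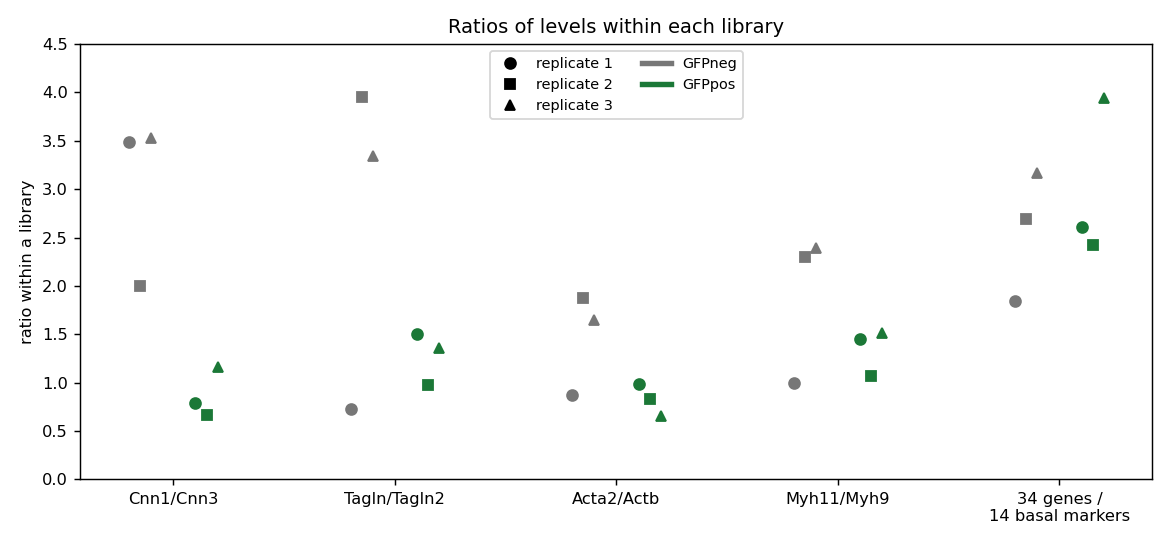
Ratios within each library: 4 pairs of a smooth muscle gene and a relative of wider expression (counts per exon length), and the summed CPM of the 34 genes over that of 14 basal markers. Symbols mark the replicate, grey is GFPneg and green is GFPpos. Cnn1/Cnn3 separates the groups, from 2.00 up in GFPneg and up to 1.16 in GFPpos, and the other ratios overlap. The ratios were chosen after the data were seen.

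Membrane and signalling genes were led by Oxtr, the oxytocin receptor gene (ENSMUSG00000049112.9, chromosome 6, 112473683 to 112489943). It stood at 426, 584 and 689 CPM in GFPneg and 286, 354 and 340.4 CPM in GFPpos cells. All GFPpos values were lower than all GFPneg values, in each pair, with a log2 fold change of -0.80 (SE 0.37) and an adjusted p of 0.950. The fold change was -0.94 (SE 0.25) without GFPneg replicate 1, with an adjusted p of 0.164. Cav1, which encodes the caveolar coat protein caveolin-1, was at 157, 288 and 157 CPM in GFPneg and 198, 220.0 and 188 CPM in GFPpos cells, and its fold change was 0.00, a value whose sign depended on the scaling (-0.02 with DESeq2's size factor method) and on GFPneg replicate 1 (-0.12 without it).

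Other channel and signalling members were sparse. The beta subunit gene of the calcium-activated potassium channel, Kcnmb1, was at 0, 16.2 and 8.02 CPM in GFPneg and 6.89, 13.4 and 12.4 CPM in GFPpos cells, with the highest fold change of this group over 6 libraries (0.23 (SE 0.95)), which was -0.14 without GFPneg replicate 1. Its pore subunit gene Kcnma1 was at 91.8, 4.62 and 0 CPM in GFPneg and 8.06, 1.63 and 19.3 CPM in GFPpos cells. The value in GFPneg replicate 1 came from 28 counts, and the fold change was -1.51 (SE 1.50) over 6 libraries and 2.04 (SE 1.47) without that library. Mrvi1, which encodes a target of cGMP-dependent protein kinase, had 0 counts in GFPneg replicate 1 and 13.1 to 34.3 CPM in the other libraries (log2 -0.09).

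In the adhesion and cytoskeleton group 5 of 9 genes had negative fold changes over 6 libraries and 8 of 9 without GFPneg replicate 1 (medians -0.25 and -0.41). Synm, which encodes the intermediate filament protein synemin, was at 88.5, 163 and 248 CPM in GFPneg and 88.2, 86.8 and 109 CPM in GFPpos cells. GFPneg replicates 2 and 3 exceeded all GFPpos values and GFPneg replicate 1 did not. Its fold change of -0.83 (SE 0.45) was the most negative of the group, it was -1.10 without GFPneg replicate 1 (adjusted p = 0.135), and Synm fell in the block fit without replicate 1 (adjusted p = 0.0439). Pdlim7, a PDZ and LIM domain protein of actin cables, was at 174, 156 and 214 CPM in GFPneg and 145, 110.5 and 88.7 CPM in GFPpos cells, without overlap (log2 -0.66 (SE 0.41), unadjusted p = 0.125).

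Flna, filamin A, which crosslinks actin, was at 928, 3078 and 3609 CPM in GFPneg and 1983, 1785 and 2104 CPM in GFPpos cells. Its fold change was -0.38 (SE 0.45), and -0.75 (SE 0.27) without the low GFPneg library. The focal adhesion genes Tln1 (talin 1, 440.2 to 834 CPM, log2 -0.43), Vcl (vinculin, 259 to 421 CPM, log2 -0.25) and Actn1 (alpha-actinin 1, 203 to 557 CPM, log2 0.16, or -0.15 without GFPneg replicate 1) overlapped between the groups. Csrp1, a LIM domain protein, ranked 5 per exon length among the members in GFPneg and 2 in GFPpos cells, at 193 to 785 CPM (log2 0.16), and Synpo2, synaptopodin-2, was at 26.2 to 184 CPM (log2 0.15). Both turned negative without GFPneg replicate 1, to -0.21 and -0.26. Sncg, a synuclein gene, was at 59.0, 25.4 and 36.0 CPM in GFPneg and 43.6, 34.7 and 60.7 CPM in GFPpos cells. Its fold change was the largest positive value of the group at 0.26 (SE 0.58), and 0.62 (SE 0.38) without GFPneg replicate 1.

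**Figure D4:**
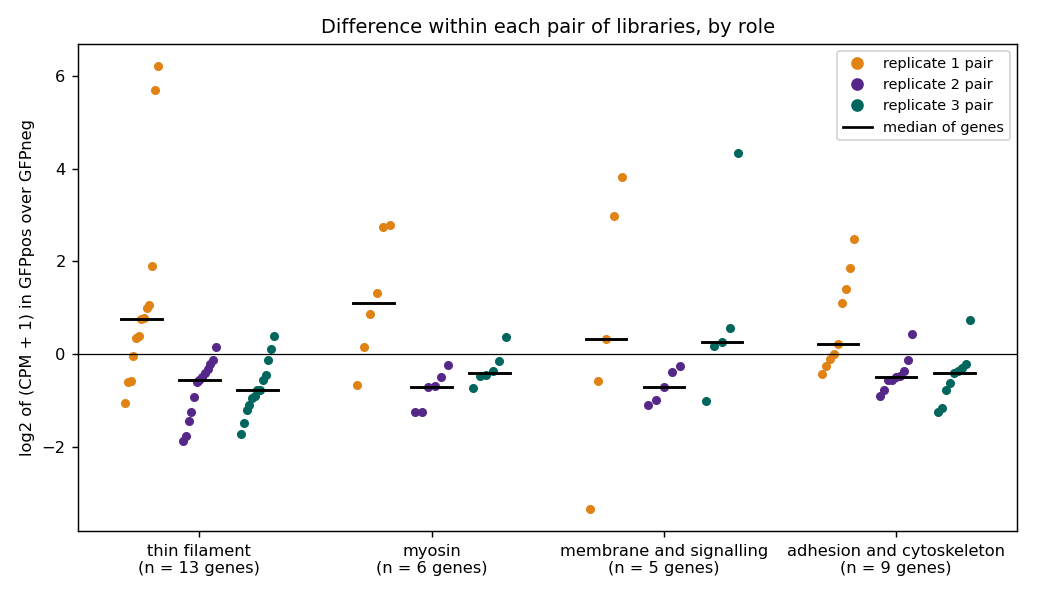
Log2 ratio of CPM + 1 in GFPpos over GFPneg for each tested gene within each pair, by role, with the median as a black bar. The thin filament medians are 0.75, -0.56 and -0.78 in replicates 1, 2 and 3 and the myosin medians 1.09, -0.70 and -0.40, so that replicate 1 lies on the other side of 0. Of all tested genes, 24.5% were lower in GFPpos in the replicate 1 pair.

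Per exon length, which allows levels of different genes to be compared, Acta2 was followed in GFPneg cells by Myh11 (504 CPM per kb), Tpm2 (308), Flna (270.0), Csrp1 (264) and Tagln (253). In GFPpos cells the order was Csrp1 (296), Myh11 (277), Flna (208), Tpm2 (183) and Myl9 (176). Cnn1 moved from rank 14 to rank 23 of 34. The replicates of neighbours in these orders overlapped in many cases, and no test was made of ranks. Exons of 13 members overlap those of another gene in GENCODE M21, among them Vcl with Ap3m1 (up to 2090 bases), Kcnma1 with 4930519K11Rik (1016) and Tagln with Gm48529 (645), all on the opposite strand. Whether counting used strand is not given, so reads of these genes and their partners may be mixed.

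Transcription factors of the contractile program were named for their role. Srf, serum response factor, was at 59.0, 110.4 and 98.2 CPM in GFPneg and 78.9, 101 and 124 CPM in GFPpos cells, and its groups overlapped (log2 0.16 (SE 0.44)). Its partners Mkl1 and Mkl2 had fold changes of 0.15 and -0.12. Without GFPneg replicate 1 all 3 changed sign, to -0.03 for Srf, -0.14 for Mkl1 and 0.58 for Mkl2. Myocd, which encodes the coactivator myocardin, was at 0, 1.49 and 3.64 CPM in GFPneg and 11.1, 5.84 and 24.2 CPM in GFPpos cells, and the GFPneg replicate 1 value is a count of 0, which allows up to 9.84 CPM. The fold change was 2.62 (SE 1.08), with an adjusted p of 0.843, or 0.349 without GFPneg replicate 1.

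Calcium and cGMP signalling genes were mostly positive, 16 of 22 (median 0.22), with 0 called. Of all genes tested over 6 libraries 42.5% were negative, with a median of 0.15, and 0.00721% were called lower and 0.0577% higher. These shares are the background for this list and each list below, and those of the other fits are given above. Gucy1b3, a subunit of the nitric oxide receptor, was at 0, 10.4 and 11.8 CPM in GFPneg and 29.7, 32.1 and 51.0 CPM in GFPpos cells (log2 2.09 (SE 0.79), adjusted p = 0.773). Plcb1, a phospholipase downstream of receptors such as that of oxytocin, was at 52.5, 71.6 and 112 CPM in GFPneg and 33.8, 35.7 and 35.1 CPM in GFPpos cells, below all GFPneg values in each GFPpos library (log2 -1.20 (SE 0.51), adjusted p = 0.843). Of 18 nonmuscle cytoskeleton genes 12 were negative with a median of -0.11 and 0 were called. They summed to 10614, 8629 and 8389 CPM in GFPneg and 7543, 8144 and 8289.9 CPM in GFPpos cells.

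Summed, the 34 genes stood at 11456, 21652 and 21586 CPM in GFPneg and 13786, 11941 and 13324 CPM in GFPpos cells. GFPneg replicates 2 and 3 stood above all other libraries, and GFPneg replicate 1 was the lowest. Markers of basal cells had the same sign in most cases: 12 of 14 had negative fold changes (median -0.57), 0 were called over 6 libraries and Col17a1, a hemidesmosomal collagen gene, fell without GFPneg replicate 1 (adjusted p = 0.0328). They summed to 6210.1, 8030.5 and 6827 CPM in GFPneg and 5274, 4923 and 3380.2 CPM in GFPpos cells, without overlap. The members' sum divided by the basal sum was 1.84, 2.70 and 3.16 in GFPneg and 2.61, 2.43 and 3.94 in GFPpos replicates 1, 2 and 3, and these ratios overlapped. The part of the basal markers in the differences of single members was not tested.

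Pericytes and vascular smooth muscle cells also express many of the 34 genes. Their markers had mostly the opposite sign to the contractile genes: 10 of 12 tested had positive fold changes (median 1.48), 0 were called, 14 of 18 had 0 counts in GFPneg replicate 1, and all 18 summed to 154, 209 and 279 CPM in GFPneg and 524, 358 and 1039 CPM in GFPpos cells. Notch3, a receptor of the Notch family, had the smallest p of them, at 42.6, 21.7 and 61.5 CPM in GFPneg and 155, 101 and 279 CPM in GFPpos cells (log2 2.09 (SE 0.53), adjusted p = 0.350). Of the defining markers, Rgs5 was at 0, 27.2 and 29.5 CPM in GFPneg and 38.8, 23.7 and 164 CPM in GFPpos cells, Pdgfrb at 0, 12.8 and 29.1 and 8.70, 7.55 and 66.6 CPM in the same order, and Kcnj8 had 0 counts in GFPneg replicates 1 and 3 and GFPpos replicates 1 and 2.

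Luminal markers were positive in 13 of 19 tested (median 0.77), with 459, 1104 and 949.6 CPM in GFPneg and 1337, 1267 and 896 CPM in GFPpos cells as the sum of 20, and 0 were called without the block over 6 libraries. Kit, a receptor gene of luminal progenitors, was at 16.4, 4.52 and 11.0 CPM in GFPneg and 61.7, 92.1 and 145 CPM in GFPpos cells. It rose without GFPneg replicate 1 (log2 3.72, adjusted p = 0.00523) and with the replicate block over 6 libraries (log2 3.46, adjusted p = 0.00358). Other markers of the list were closer between the groups. Krt8 and Krt18 had fold changes of 0.51 and 0.77, or 0.27 and 0.67 without GFPneg replicate 1. Elf5, at 0 to 2.55 CPM, had fold changes of -0.02 and -0.24 in the same fits. Fibroblast markers were negative in 8 of 10 tested (median -1.63), and the sum of all 14 was 1062, 1708 and 2027 CPM in GFPneg and 601, 565 and 570.2 CPM in GFPpos cells. Postn, a matrix protein gene, fell without GFPneg replicate 1 (log2 -2.27, adjusted p = 0.00378), and Ly6c1, also a marker of the list, fell with the replicate block (log2 -5.87, adjusted p = 0.00385). Endothelial markers (9 of 15 positive, near the share of all genes, median 0.41) summed to 1276 to 3328 CPM in GFPneg and 1540.0 to 4326 CPM in GFPpos libraries, with GFPpos replicate 3 highest. Ptprb, a phosphatase gene of endothelial cells, went against that sign at 393, 315 and 223 CPM in GFPneg and 38.8, 49.6 and 145 CPM in GFPpos cells, and fell with the replicate block (log2 -2.23, adjusted p = 0.0104). Schwann cell markers (5 of 7 tested negative, median -1.37) summed to 212 to 905 CPM in GFPneg and 124 to 207 CPM in GFPpos libraries. Cdh19, a cadherin gene of the list with 0 counts in the 3 GFPpos libraries, fell without GFPneg replicate 1 (adjusted p = 0.0302). Skeletal and cardiac muscle markers (4 of 13 tested, 3 of them negative, median -1.54) summed to 57.0 to 197 CPM over all libraries. Most of the sum in GFPneg replicate 1 and GFPpos replicates 2 and 3 was Ttn, the gene of the giant muscle protein titin. It was at 184, 0.770 and 0 CPM in GFPneg and 12.5, 86.8 and 157 CPM in GFPpos cells. Its fold change of 0.71 over 6 libraries was the 1 positive value of the 4 tested. Actn2 was at -2.75, Tnni2 at -2.17 and Actc1 at -0.91. Ttn rose without GFPneg replicate 1 (adjusted p = 0.0121) and with the replicate block (adjusted p = 0.000537). Ckm, the muscle creatine kinase gene, had 0 counts in all 6 libraries. The part of these cells in the contractile gene levels was not tested.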

How the data were processed

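The 6 RNA-seq libraries, 3 per group, took their group and number from their titles. For each library the authors deposited raw counts of reads, 1 whole number for each gene symbol. TopHat2 and HTSeq, with cutadapt, FastQC and the mm10 genome, are named in the submitters' processing notes. Tool versions, the annotation release and strandedness: not given in the sources used here. HTSeq summary rows (28.8% to 66.4% of reads in no feature, 0.390% to 2.07% ambiguous) were left out. Positions and exon lengths came from GENCODE M21.

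After filterByExpr and TMM scaling, the quasi-likelihood test of edgeR 4.0.16 (under R 4.3.3) was run on the counts with group as the only term, with Benjamini-Hochberg adjustment over all genes and a threshold of 0.05. CPM used TMM-scaled library sizes (factor 0.501 for GFPneg replicate 1, 1.05 to 1.22 for the others). The SE is the size of the unshrunk log2 fold change divided by the square root of F. Alternatives were the replicate block, DESeq2 1.42.0, limma-voom (limma 3.58.1), other scaling and filters, and leaving out libraries or pairs. The scripts were tested on simulated data.

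The series design has GFPpos and GFPneg cells of 1 number sorted from 1 pool of mice, so the number pairs the libraries. Their deviations from the group means correlated at -0.036, 0.122 and -0.0013. Mice were pooled, so that p-values measure the spread between libraries of pools, not between single mice. The fit with group as the only term does not use the pairing. With 6 libraries that spread includes the shallow GFPneg replicate 1, which also enters the correlations through the group mean.

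The 34 members, the 10 lists of other genes (1 of them is not reported here as a list), the tests and the alternatives were chosen with earlier results of these data known. Fully described are Acta2, Myh11, Cnn1, Mylk, Tagln, Oxtr, every member called with 6 libraries, with the block or without GFPneg replicate 1, and the highest and lowest fold change of each of the 4 role groups. Other tested members have at least a fold change and a range. Of the other lists, genes of smallest p are named, with a few chosen for their role or as defining markers, and some of those called, chosen after their values were seen. The 8 within-library ratios (7 testable, as Cnn2 had 0 counts in GFPneg replicate 1) were chosen after seeing the data.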

Additional observations from a re-analysis of the deposited data

How the results depend on the processing

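The count of members called was 0 in each edgeR fit of 6 libraries and in both DESeq2 fits, 2 with limma-voom, and 6 with the replicate block without replicate 1. It ranged from 0 to 1 when libraries or pairs were left out, with the 1 (Cnn1) found without GFPneg replicate 1. The median member fold change ranged from -0.50 (without replicate 1) to 0.05 (without replicate 2) in those fits. The median of all genes was 0.02 without replicate 1 and 0.30 without replicate 2, so that the members stood -0.52 and -0.25 from it. Scaling by library size only moved the median of all genes from 0.15 to 0.31 and that of the members from -0.25 to -0.11, so that the members stood -0.40 and -0.42 from it. The number of genes called among all tested was 9 with 6 libraries, 61 with the replicate block, 602 with the block without replicate 1, 98 with DESeq2, 152 with DESeq2 and the replicate block, 78 with limma-voom and 301 with no low count filter, and 3 to 92 with libraries or pairs left out.

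Over 19 alternatives 13 of the 33 members kept their sign: Acta2, Tpm2, Cald1, Cnn1, Tagln, Smtn, Myh11, Oxtr, Flna, Vcl, Tln1, Pdlim7 and Synm. The other 20 changed sign in at least 1, none with an adjusted p below 0.05, and the cause was not tested. With the replicate block the fold change was 0.27 for Cnn2, 0.0011 for Lmod1, 0.12 for Myl9, 0.32 for Myl6, 0.093 for Ppp1r12a and 0.34 for Mrvi1. With DESeq2 and the replicate block it was 0.19 for Actg2, 0.46 for Cnn2, 0.15 for Myl9, 0.31 for Myl6, 0.065 for Ppp1r12a and 0.33 for Mrvi1. With the block without replicate 1 it was -0.029 for Cnn3, 2.69 for Kcnma1, -0.041 for Cav1, -0.23 for Actn1, -0.37 for Csrp1 and -0.37 for Synpo2. With limma-voom it was 3.22 for Kcnma1, -0.11 for Cav1, -0.13 for Actn1, -0.20 for Csrp1 and -0.11 for Synpo2. With library size only it was 0.11 for Tpm4, 0.066 for Lmod1, 0.013 for Myl6 and 0.032 for Ppp1r12a. Cav1 was at -0.025 with DESeq2, -0.024 with RLE factors and -3.1e-05 with at least 1 CPM in 3 libraries.

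When libraries or pairs were left out, the fold change ranged from -1.20 to 0.58 for Actg2, -0.51 to 0.067 for Tpm1, -0.28 to 0.14 for Tpm4, -0.82 to 0.26 for Cnn2, -0.062 to 0.62 for Cnn3, -0.033 to 0.44 for Tagln2, -0.34 to 0.18 for Lmod1, -0.84 to 0.23 for Myl9, -0.49 to 0.35 for Myl6 and -0.55 to 0.052 for Mylk. It ranged from -0.45 to 0.28 for Ppp1r12a, -0.015 to 0.38 for Ppp1r14a, -0.14 to 1.02 for Kcnmb1, -3.23 to 2.16 for Kcnma1, -0.65 to 0.49 for Mrvi1, -0.15 to 0.37 for Cav1, -0.22 to 0.44 for Actn1, -0.37 to 0.59 for Csrp1, -0.34 to 0.57 for Synpo2 and -0.059 to 0.66 for Sncg. Depth limited GFPneg replicate 1, in which 1 count equalled 3.28 CPM.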
